A study of Mus musculus with 2 samples.

Results

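In the E15.5 pancreas, 5 of 7 measured genes of the α-cell program were at least 1.2-fold higher in the *Mafk*-Tg array than in the WT array, and 0 were at least 1.2-fold lower. With equal medians or quantile normalization 4 passed. At 1.3-fold, a cutoff chosen after the data had been seen, 2 passed, against 3.16% of all genes. The genes were *Gcg*, *Pou3f4*, *Irx1*, *Irx2*, *Pax6*, *Ttr*, *Gc* and *Tm4sf4*, 8 genes taken by name as hormone, transcription factor and other genes of glucagon-producing α-cells. Each was read from the probe sets that carry its symbol and no other. In this way 7 of the 8 were measured, each by 1 probe set, out of 19938 genes measured on the arrays, and *Gc* was not analysed here. Of all measured genes, 7.96% passed 1.2-fold upward in *Mafk*-Tg and 10.5% downward. Among genes with a mean level no lower than the median probe set, which holds for 6 of the 7, 5.58% passed upward. These shares describe the pair of arrays, and no test was possible with 1 array per genotype.

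α-cells are among the first hormone cells of the embryonic pancreas, and they secrete glucagon, which raises blood glucose by acting on the liver. *Gcg* encodes proglucagon, the precursor that the convertase PC2 cuts to glucagon in α-cells and that PC1/3 cuts to the glucagon-like peptides in the gut. α-cells arise from NGN3-positive progenitors, and they share with other islet cells factors such as PAX6, ISL1 and FOXA2 that act on the *Gcg* promoter. POU3F4, also called BRN4, is a POU-homeodomain factor of α-cells that binds the same promoter, and the Iroquois factors IRX1 and IRX2 are found in glucagon+ cells. Large MAF factors also act at *Gcg* and insulin promoters, and MAFK, a small MAF protein that binds the same elements without an activation domain, can compete with them.

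WT embryos and *Mafk*-Tg embryos, both on the ICR background, were compared at E15.5, the period of the secondary transition, with no treatment. The transgene carries a FLAG-tagged murine MafK cDNA under the rat insulin I promoter, a promoter of insulin-producing cells. RNA came from whole pancreas, and the labels give 3 pancreata for each genotype. One array for each genotype was analysed here, while the paper speaks of technical replicates and gives the same number per genotype as the labels. Whether each array holds a pool of the 3 is not stated in the sources used. Values are log2 array values as the authors normalized them, so a difference of 0.26 is a ratio of 1.2. In whole tissue, more cells of a type and more RNA per cell cannot be told apart.

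The arrays had medians of 6.01 and 6.01, and the median difference of all genes was -0.01. *Mafk* itself was higher by 0.25, which is under 1.2-fold, from a WT value of 6.75. The acinar marker *Cpa1* was bright in both arrays, at 13.48 in WT and 13.51 in *Mafk*-Tg. The progenitor and β-cell gene *Pdx1* lay above the median in both, at 7.57 and 7.93, a difference of 0.37 that is past 1.2-fold. *Xist* was higher in *Mafk*-Tg by 6.90 and 3 Y-linked genes had differences of -3.93 to -5.68, so an effect of genotype and one of embryo sex cannot be told apart for any gene below.

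The promoters of *Ttr* and *Irx1* were not analysed here. RefSeq promoter sequences were read for the other 5 of the 7 measured genes, from 250 bases before to 50 after a transcript start. The sequences of 4 of them are shown since they span the range of the results: *Gcg*, the hormone gene, *Pou3f4* and *Tm4sf4*, the genes with the greatest differences among the 7, and *Irx2*, which hardly differed. They lie on GRCm38.p6 at chr2:62483604-62483903 (minus strand), chrX:110814129-110814428 (plus strand), chr3:57425160-57425459 (plus strand) and chr13:72628570-72628869 (plus strand). Capitals mark each match, on either strand, to the letters TGCTGA, which form the half-site of a MAF recognition element (MARE), to the core GCTGA that lies within it, or to the TATA box letters TATAAA. On the opposite strand the half-site reads TCAGCA, its core TCAGC and the TATA box TTTATA.
*Gcg*: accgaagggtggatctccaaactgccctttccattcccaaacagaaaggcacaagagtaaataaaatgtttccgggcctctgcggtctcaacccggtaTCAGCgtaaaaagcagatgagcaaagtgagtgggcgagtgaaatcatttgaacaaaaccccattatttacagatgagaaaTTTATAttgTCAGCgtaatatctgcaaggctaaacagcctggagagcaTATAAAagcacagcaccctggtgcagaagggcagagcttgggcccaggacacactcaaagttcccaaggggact
*Pou3f4*: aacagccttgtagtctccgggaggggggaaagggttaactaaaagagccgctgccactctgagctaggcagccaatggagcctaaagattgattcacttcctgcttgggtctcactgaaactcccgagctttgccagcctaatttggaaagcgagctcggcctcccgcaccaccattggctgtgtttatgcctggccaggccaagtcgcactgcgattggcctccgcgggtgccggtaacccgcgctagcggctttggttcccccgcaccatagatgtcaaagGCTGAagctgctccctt
*Tm4sf4*: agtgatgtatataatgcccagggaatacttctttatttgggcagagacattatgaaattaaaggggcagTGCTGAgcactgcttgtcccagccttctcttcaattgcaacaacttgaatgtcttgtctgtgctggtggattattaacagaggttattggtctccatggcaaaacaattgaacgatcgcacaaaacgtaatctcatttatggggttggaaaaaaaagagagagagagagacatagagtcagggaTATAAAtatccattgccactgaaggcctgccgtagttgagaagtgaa
*Irx2*: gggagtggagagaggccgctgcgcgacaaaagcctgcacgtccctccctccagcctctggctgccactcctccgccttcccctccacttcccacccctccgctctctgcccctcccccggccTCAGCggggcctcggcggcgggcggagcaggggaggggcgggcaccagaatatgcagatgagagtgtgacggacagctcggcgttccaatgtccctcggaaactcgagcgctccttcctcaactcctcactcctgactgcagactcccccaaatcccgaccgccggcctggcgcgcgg

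The *Gcg* promoter held 2 copies of the core, both on the strand opposite to the gene, beginning 152 and 63 bases before the start, and TATAAA at 24 bases before it. A second TATAAA lay on the opposite strand at 72 bases before the start. The *Tm4sf4* promoter held the full half-site at 181 bases before the start, the only one of the 6 promoters of these genes (*Pax6* has 2) to do so, and TATAAA 4 bases into the transcript. The core alone was found in *Pou3f4*, in *Irx2* and in 1 of the 2 *Pax6* promoters. Among all 32851 promoters of this length, 19.5% held the half-site, 54.2% the core and 13.6% TATAAA on either strand. A match is a description of letters and not a measured site, and the core was added to the search after the sequences had been read.

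**Figure D1:**
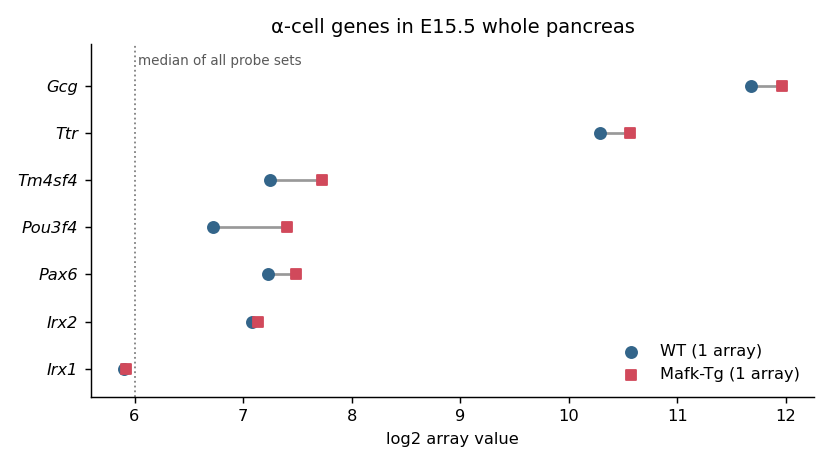
Log2 array values of the 7 measured α-cell genes in WT (circles) and *Mafk*-Tg (squares), 1 array each, with a grey line joining the pair and a dotted line at the median level of all probe sets. *Pou3f4* and *Tm4sf4* have the longest lines, *Irx1* and *Irx2* the shortest; levels of different genes come from different probes and are not compared.

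The hormone gene was modestly higher. *Gcg* measured 11.68 on the log2 scale in WT against 11.96 in *Mafk*-Tg, which differ by 0.28 at a ratio of 1.21. Its value lay far above the median of the arrays and below their highest value, 14.01. Of all genes, 1403 had a larger difference than *Gcg*. The 1000 genes nearest to it in level had differences with a robust SD of 0.13, a spread between genes that cannot stand in for replicate error.

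*Ttr* encodes transthyretin, a carrier of thyroid hormone that also binds the retinol carrier RBP4 and that is expressed in α-cells, liver and choroid plexus. It measured 10.29 in WT against 10.56 in *Mafk*-Tg, which differ by 0.27 at a ratio of 1.21, with a robust SD of 0.13 for genes of similar level. *Ttr* thus differed by nearly as much as *Gcg*, though quantile normalization, at 0.26, put it just under 1.2-fold. *Rbp4* had 8.70 and 9.25, a difference of 0.55. Liver also expresses *Ttr*, and 8 of 17 measured hepatocyte markers passed 1.2-fold downward, while 1, *Rbp4*, was higher. *Alb* went from 11.23 to 10.66, *Apob* from 6.47 to 5.53 and *Apoa1* from 7.61 to 7.03, and the markers had a median difference of -0.22. Their summed linear signal was 13783 in WT and 13498 in *Mafk*-Tg, most of it from *Serpina6*, with 13.01 and 13.10, and without that gene it was 5519 and 4700, at a ratio of 0.852. Of the 17 markers 12 had a difference below 0 and 5 had one above 0. Among all genes, 10.5% passed 1.2-fold downward and 7.96% upward. The part of liver in the value of *Ttr* was not tested. *Serpina7*, another thyroid hormone carrier gene, had 2.86 and 3.18, both far under the array median.

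The transcription factor genes did not move alike. *Pou3f4* measured 6.72 in WT against 7.40 in *Mafk*-Tg, which differ by 0.68 at a ratio of 1.60. The difference was exceeded by 75 of all genes, and genes of similar level had a robust SD of 0.17. *Pou3f4* was the only gene of the 7 at or above 1.5-fold, against 0.697% of all genes. It is X-linked, and 13.6% of 742 measured X-linked genes passed 1.2-fold upward, although their median difference was 0.00. The part of the sex-linked difference in the value of *Pou3f4* was not tested.

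*Pax6*, which encodes a paired and homeodomain factor needed for α-cell formation, measured 7.23 in WT against 7.49 in *Mafk*-Tg, which differ by 0.27. It passed 1.2-fold so narrowly that a shift of the arrays to equal medians placed it just under. *Irx2* had 7.08 and 7.14, a difference of 0.06. *Irx1* had 5.90 and 5.92, a difference of 0.02, with both values just under the array median, where background makes up more of the signal. Both Iroquois genes thus lay near 0 in arrays where *Gcg* and *Ttr* were higher by 0.28 and 0.27. The difference of *Irx2* was smaller than that of *Gcg* by 0.22 and smaller than that of *Pou3f4* by 0.61, without replicates to test either gap.

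*Tm4sf4* encodes a multi-pass membrane protein of the L6 family that is expressed in developing endocrine cells, liver and intestine. It measured 7.25 in WT against 7.73 in *Mafk*-Tg, which differ by 0.49 at a ratio of 1.40. Among all genes, 270 had a larger difference, and genes of similar level had a robust SD of 0.15. By size of the difference the 7 genes ran from *Pou3f4* through *Tm4sf4*, *Gcg*, *Ttr*, *Pax6* and *Irx2* to *Irx1*. The middle 3, *Gcg*, *Ttr* and *Pax6*, lay within 0.02 of each other and cannot be ordered. Their median was 0.27.

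**Figure D2:**
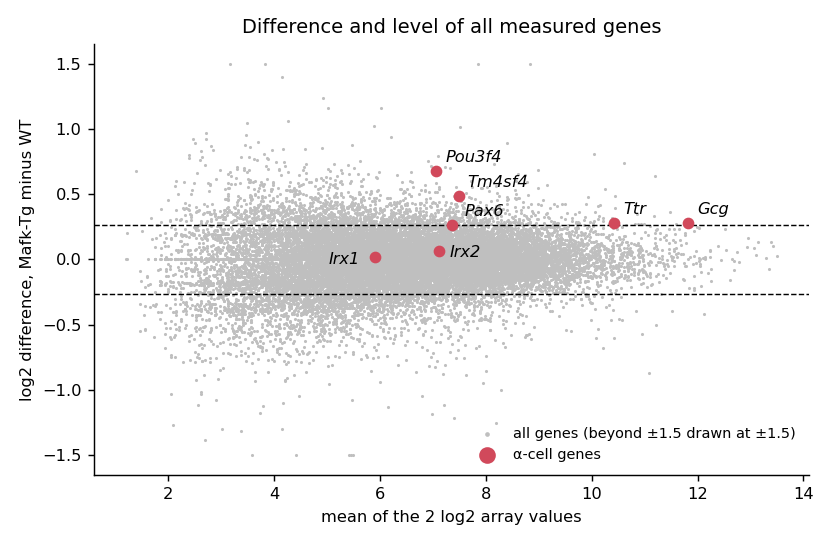
Log2 difference, *Mafk*-Tg minus WT, against the mean of the 2 log2 array values for 19938 genes (grey) and the 7 α-cell genes (red), with dashed lines at 1.2-fold and values beyond 1.5 drawn at the edge. Differences scatter more among dim genes, and *Gcg* and *Ttr* lie in the narrow bright range while *Pou3f4* stands above most genes of its level.

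Relatives of the 7 genes were examined family by family, in arrays where 7.96% of all genes passed 1.2-fold upward and 10.5% downward. At these shares most genes of any family would lie within 1.2-fold. *Irx1*, *Irx2* and *Irx4* lie on chromosome 13 and *Irx3*, *Irx5* and *Irx6* on chromosome 8. The 4 other IRX genes had differences of -0.11 to 0.03, and all 4 had a mean level under the median of all probe sets. *Pou3f1*, *Pou3f2* and *Pou3f3*, POU genes better known from the nervous system, had 0.00, 0.01 and -0.25. *Pou3f4* was thus the only one of the 4 POU3F genes past 1.2-fold, while 2 of the 3 others lay under the median level. Of the 8 other PAX genes, *Pax4*, which encodes a factor of β-cell fate, went from 6.76 to 7.03, at 0.26 just past 1.2-fold, and just under it with equal medians or quantile normalization. *Pax2* and *Pax5* were lower, at -0.27 and -0.41, but 7 of these 8 genes lay under the median level, *Pax2* and *Pax5* among them, and a loess put *Pax2* within 1.2-fold. *Tm4sf1*, the closest neighbour of *Tm4sf4* on chromosome 3, had 8.06 and 8.23, and *Tm4sf5* had 7.18 and 7.07, both within 1.2-fold. The 4 other genes of this family ran from -0.17 to 0.17, 2 of them under the median level.

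**Figure D3:**
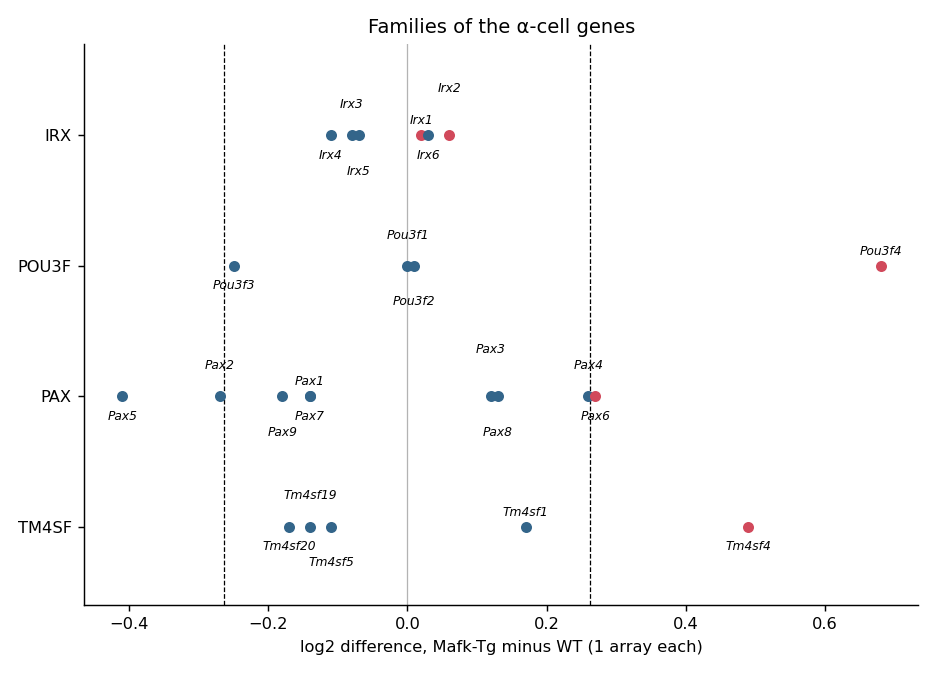
Difference on the log2 scale (*Mafk*-Tg minus WT) for every measured IRX, POU3F, PAX and TM4SF gene, with the α-cell genes in red, the other family members in blue and dashed lines at 1.2-fold (1 array per genotype). *Pou3f4* at 0.68 and *Tm4sf4* at 0.49 have the highest values of their families, in each of which 2 of the other genes lie under the median level, and the IRX genes lie between -0.11 and 0.06.

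Several other factors of α-cell fate were higher as well. Of 9 measured genes, 5 were at least 1.2-fold higher and 0 lower, with a median difference of 0.39. Among all genes, 7.96% passed upward and 10.5% downward. *Isl1*, which encodes a LIM-homeodomain factor of islet cells, went from 7.48 to 7.95. *Foxa1* went from 5.21 to 5.60, both under the array median, and its relative *Foxa2* from 6.68 to 7.07. *Neurog3* and *Rfx6*, factors of the endocrine progenitors from which α-cells arise, were higher by 0.51 and 0.48. *Rfx3*, at 0.17, *Insm1*, at 0.09, and *Nkx2-2*, at 0.04, lay within 1.2-fold, as did *Neurod1* at 0.26. Of the 5 factors of β-cell fate, *Pdx1* and *Pax4* passed upward and *Mafa*, whose mean lay under the median level, downward at -0.47.

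Among the islet hormones, *Gcg* had neither the highest nor the lowest difference. *Pyy*, *Ppy* and *Sst*, which encode peptide YY, pancreatic polypeptide and somatostatin, were higher by 0.69, 0.56 and 0.47. *Pyy* is co-expressed with glucagon in many early islet cells. *Ghrl* and *Iapp* had 0.21 and 0.17. *Ins2* alone was lower, with 8.79 in WT and 8.40 in *Mafk*-Tg. The difference of *Gcg* therefore exceeded that of *Ins2* by 0.68, and fell short of that of *Pyy* by 0.41. *Ins1* was not analysed here.

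The genes around glucagon, its processing and its receptors were examined next. Of 9 measured genes of prohormone processing and granule proteins, 1, *Chgb*, was higher and 1, *Chga*, was lower, with a median of 0.14, where 7.96% and 10.5% of all genes passed upward and downward. *Pcsk1*, which encodes PC1/3, went from 7.25 to 7.23, and *Scg5*, which encodes the PC2 chaperone 7B2, from 7.01 to 7.07. *Pcsk2*, the gene of PC2, was not analysed here. Among 7 genes of glucagon family receptors and other ligands, 0 passed 1.2-fold in either direction. The glucagon receptor gene *Gcgr* had 5.80 and 5.54, and *Glp1r*, the receptor gene for the glucagon-like peptide that promotes insulin release, 6.18 and 6.10. Of 9 other genes enriched in α-cells, 1 was higher, the chromatin remodeller gene *Smarca1*, with 7.73 and 8.03. It is X-linked, like *Pou3f4*. The free fatty acid receptor gene *Ffar1* had 5.71 and 5.97, the protease gene *Fap* 6.69 and 6.94, and the amino acid transporter genes *Slc38a5* and *Slc7a2* had differences of 0.14 and -0.12. The median of this list was 0.14.

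**Figure D4:**
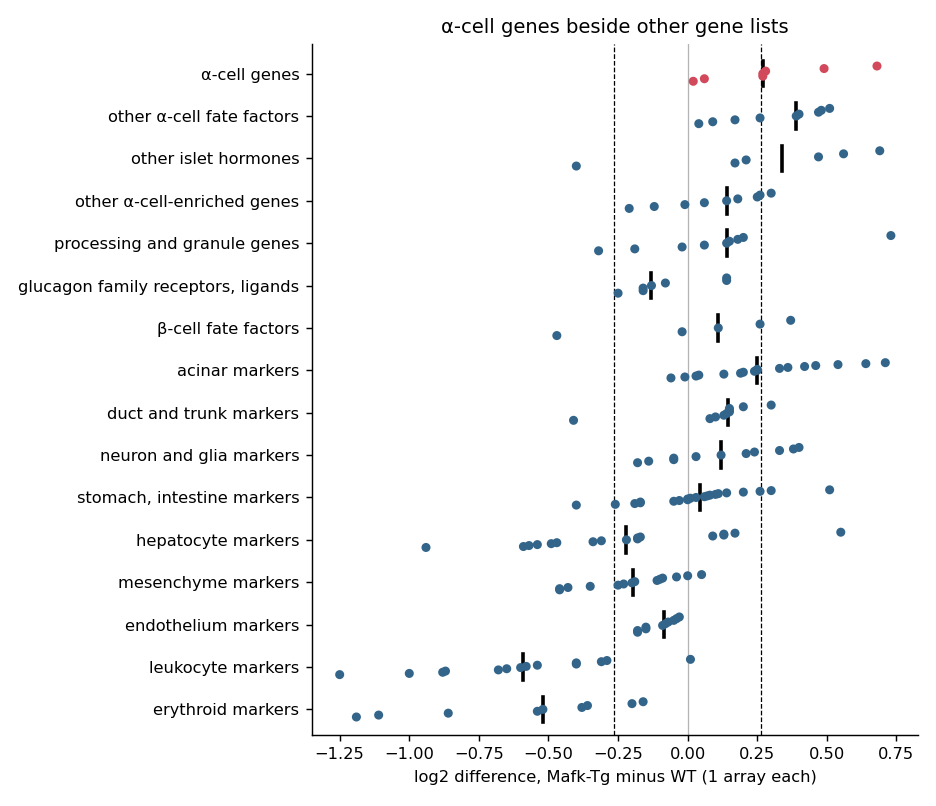
Difference on the log2 scale (*Mafk*-Tg minus WT) for every measured gene (points, with the 7 α-cell genes in red) and the median (bar) of 16 gene lists, with dashed lines at 1.2-fold and 1 array per genotype. *Cym* at 3.34 lies beyond the axis in the list of stomach and intestine markers, and the median of the α-cell genes, 0.27, lies beside that of the acinar markers, 0.25.

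Markers of the other cells of the tissue differed as well, in arrays where 7.96% of all genes passed 1.2-fold upward and 10.5% downward. Of 17 acinar markers, 7 were at least 1.2-fold higher and 0 lower, with a median of 0.25 and a summed linear signal of 44555 in WT against 49843 in *Mafk*-Tg, at a ratio of 1.12. *Zg16* was higher by 0.71 and *Try10* by 0.64. Set against the acinar median, *Gcg*, *Ttr* and *Pax6* lay within 0.03 of it, *Pou3f4* lay above it by 0.42, *Tm4sf4* above it by 0.23, and *Irx2* and *Irx1* below it, at -0.19 and -0.23. The 10 duct and trunk markers had a median of 0.15 and the ratio of their sums was 1.11. *Epcam* and *Cdh1*, which mark epithelium as a whole, had 0.15 and 0.20. Of 14 leukocyte markers 13 were at least 1.2-fold lower, with a summed ratio of 0.606, and so were 7 of 9 erythroid markers, all 9 of which lay below 0, with a summed ratio of 0.685. Mesenchyme and endothelium markers had medians of -0.20 and -0.09. The part of these shifts in tissue composition in the values of the 7 genes was not tested.

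*Gcg* and *Tm4sf4* are also expressed in gut, and *Pax6*, *Pou3f4* and the IRX genes in neurons. Of 22 stomach and intestine markers 3 were higher, *Cym* by 3.34, *Cdx1* by 0.51 and *Atp4a* by 0.30, and 2 were lower, *Gkn1* by -0.40 and *Gkn3* by -0.26, with a median of 0.05. Without *Cym* their summed signal was 1286 in WT and 1353 in *Mafk*-Tg, a ratio of 1.05. Of the intestinal markers, *Cdx1* went from 6.17 to 6.68 and *Vil1* from 6.98 to 7.24, at 0.26 within 1.2-fold and just past it with a loess, while *Cdx2*, *Fabp1*, *Fabp2* and *Muc2* had values of 3.25 to 5.39, all under the array median. Of 11 neuron and glia markers 3 were higher, *Ret* by 0.40, *Th* by 0.38 and *Gap43* by 0.33, and 0 lower, with a median of 0.12 and 7 of the 11 above 0. Of these 3, *Th* lay under the array median in both arrays. The neuronal *Stmn2* went from 7.51 to 7.75 and *Prph* from 5.98 to 6.19. The 4 markers below 0 lay on both sides of the array median. *Fabp7*, the brightest of the list, and *Nefl* lay above it and had -0.14 and -0.05. *Tubb3* and *Elavl3* lay under it and had -0.05 and -0.18. The summed signals of the list were 2715 and 2743. Over all genes, the shares past 1.2-fold were 7.96% upward and 10.5% downward. The part of gut or nerve in the values of the α-cell genes was not tested.

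**Figure D5:**
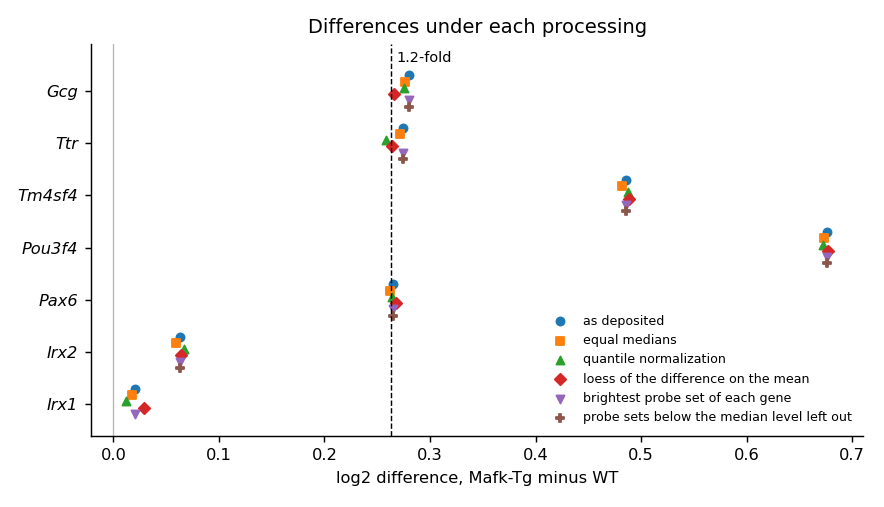
Log2 difference, *Mafk*-Tg minus WT, of the 7 α-cell genes with the arrays as deposited and under 5 other ways of scaling or summarizing them, with a dashed line at 1.2-fold. *Ttr* and *Pax6* straddle the line and *Gcg* lies just past it, while *Pou3f4* and *Tm4sf4* stay far to its right and *Irx1* and *Irx2* near 0. Each gene has 1 probe set, so the brightest probe set and the filter at the median level could not change a value.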

How the data were processed

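RNA of whole pancreas at E15.5 was hybridised to Affymetrix MoGene-1_0-st-v1 arrays, and 2 arrays were analysed, 1 of WT and 1 of *Mafk*-Tg. The deposited log2 values span 0.51 to 14.01. They come from Affymetrix Expression Console, with which the authors normalized the arrays and summarized probes. Its algorithm and version were not stated in the labels or methods. The labels name Trizol for the extraction and the study's methods a column kit. Of 35556 probe sets, 21789 had 1 symbol in the platform table, and these were averaged per gene, which gave 19938 genes. The difference is *Mafk*-Tg minus WT, set beside the 1.2-fold cutoff of the study. Levels of different genes come from different probes. They served to place genes against the array median and range, to find genes of similar level and to sum markers. Levels of the α-cell genes were not compared with each other. The number of arrays limits the precision, and no test was run. The genes and lists were chosen with earlier results of these data known. Named are the 8 genes, their families, and in other lists the genes past 1.2-fold and those with the largest differences. Symbols absent from the platform table were not analysed here, among them *Gc*. A robust SD is the scaled median absolute deviation over the 1000 genes nearest in level. Chromosomes and promoters came from RefSeq tables of GRCm38.p6. Equal medians, quantile normalization, a loess with a span of 0.3, the brightest probe set, a filter at the median level and a 1.5-fold cutoff were tried, and a 1.3-fold cutoff and the removal of X- and Y-linked genes were added after the data had been seen. Steps were tested on simulated data. Computations used pandas 2.3.3 and numpy 2.4.6 on Python 3.11.15, with statsmodels 0.14.6 for the loess and matplotlib 3.10.9 for plots.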

Additional observations from a re-analysis of the deposited data

How the results depend on the processing

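Of the 7 α-cell genes, 5 were at least 1.2-fold higher as deposited and with a loess. The same 5 passed with the brightest probe set and without probe sets below the median level, which removes *Irx1*. Each of the genes has 1 probe set, so these last settings could not change a value and do not test the result. Equal medians left 4, without *Pax6*, and quantile normalization left 4, without *Ttr*. Without X- and Y-linked genes 4 of 6 remained. At 1.3-fold, a cutoff chosen after the data had been seen, 2 were left, *Pou3f4* and *Tm4sf4*, and at 1.5-fold 1, *Pou3f4*. Of all genes, 3.16% passed 1.3-fold upward and 0.697% passed 1.5-fold upward. The difference of *Gcg* ran from 0.27 to 0.28, that of *Ttr* and *Pax6* from 0.26 to 0.27, that of *Tm4sf4* from 0.48 to 0.49 and that of *Pou3f4* from 0.67 to 0.68. Scaling moved 7 listed genes across the 1.2-fold line: *Pax6*, *Ttr*, *Pax4*, *Pax2*, *Ffar1*, *Gkn3* and *Vil1*. Of all 19938 genes, 1587 were higher and 2087 lower, against 139 and 253 at 1.5-fold and 630 and 978 at 1.3-fold. Without probe sets below the median level 11517 genes were left, of which 644 were higher and 680 lower. These counts are 5.59% and 5.9% of the smaller set, against 7.96% and 10.5% of all genes. That filter also moved list medians, from -0.14 to 0.26 for PAX genes, from 0.00 to 0.34 for POU3F genes and from -0.11 to 0.17 for TM4SF genes. Of the PAX genes it keeps only *Pax4* and *Pax6*, and of the POU3F genes only *Pou3f1* and *Pou3f4*. The median went from 0.11 to 0.26 for β-cell fate factors and from 0.05 to 0.28 for stomach and intestine markers. That of the carriers of thyroid hormone and retinol beside *Ttr* turned from 0.33 to -0.01, since the filter leaves out *Serpina7* and keeps *Alb* and *Rbp4*. No paired analysis was possible because each genotype has 1 array, and no array could be left out for the same reason.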

Other observations

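The measured genes next to the α-cell genes on the chromosome gave the following values. *Gcg* lies between *Dpp4* and *Fap* on chromosome 2, which had differences of 0.06 and 0.25, both within 1.2-fold. *Pax6* lies between *Rcn1* and *Elp4*, with -0.13 and -0.08. *Ttr* lies between *Dsg2*, which encodes a desmosome protein of epithelia, with 8.29 in WT and 8.56 in *Mafk*-Tg, and *B4galt6*, with 8.29 and 8.47. The measured neighbours of *Pou3f4* on the X chromosome, *Gm6377* and *Cylc1*, had -0.05 and -0.31 at log2 values of 2.08 to 3.27, far under the array median. *Tm4sf4* lies between *Tm4sf1* and *Wwtr1*, with 0.17 and -0.08. The order of genes is that of protein-coding genes in RefSeq, and the comparison with neighbours was chosen after the differences of the α-cell genes were known.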
